A study of Mus musculus with 12 samples.

Results

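Liver sinusoidal and vascular endothelial genes were followed here as a set of 40, of 22381 genes with values in the deposited tables. They were chosen by name, as genes known from the sinusoidal lining and from blood vessel endothelium. Earlier results of these data were known when they were chosen, so counts over the set are a description only. All 40 had values, and all 40 were among the 12637 genes that entered the test, which required a log2 value of at least that of 10 in at least 3 libraries. RNA sequencing had been carried out on whole livers of female C57BL/6 mice, with 3 libraries in each of 4 groups.

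The HFHS group held livers of mice kept for 14 weeks on a high fat high sugar diet, with no injection named in the titles. The HFHS_Curcumin and HFHS_Calcitriol groups were on the same diet and received curcumin liposomes or calcitriol liposomes intravenously in weeks 12 and 13. The CNT group carries the same diet text in its labels as the others, so what set it apart is not stated. No group given empty liposomes was analysed here, so neither drug can be told apart from its carrier. The titles number the libraries 1 to 3 within a group without saying that they came from separate animals, so the p-values measure the spread between these libraries only. The age of the mice is not given.

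The sinusoids are the capillaries of the liver, and their lining cells differ from other endothelium in being perforated by open fenestrae and in having no continuous basement membrane. These cells remove waste molecules from blood through scavenger receptors and lectins, respond to vascular endothelial growth factors and angiopoietins, and secrete WNT and BMP proteins that act on neighbouring hepatocytes. In injured liver they can lose fenestrae and take on features of ordinary capillaries, such as CD34 and von Willebrand factor, a state called capillarization.

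The files hold log2 levels and no counts, so the sequencing depth behind each value is unknown and no counting interval can be given. HFHS replicates 1 and 3 stood apart from the other libraries on the first principal component of all genes tested, at -32.8 and -28.4, against 0.4 to 14.4 for the other 10. The gene for the adipocyte protein adipsin, Cfd, stood at 9.18 in HFHS replicate 3 and at 3.35 to 4.32 elsewhere. CNT replicate 3 was low for the endothelial genes, with a median deviation of -0.34 from the genes' means, where the other 2 CNT libraries were at 0.17 and 0.01. All 40 endothelial genes had values in every library, Nrp1 at 10.3 to 11.68 and Wnt9b at 3.72 to 4.12 on the log2 scale. The values are not corrected for gene length, so levels of different genes are not compared. The 11 hepatocyte markers with values had a summed log2 level of 20.45 to 21.16.

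**Figure D1:**
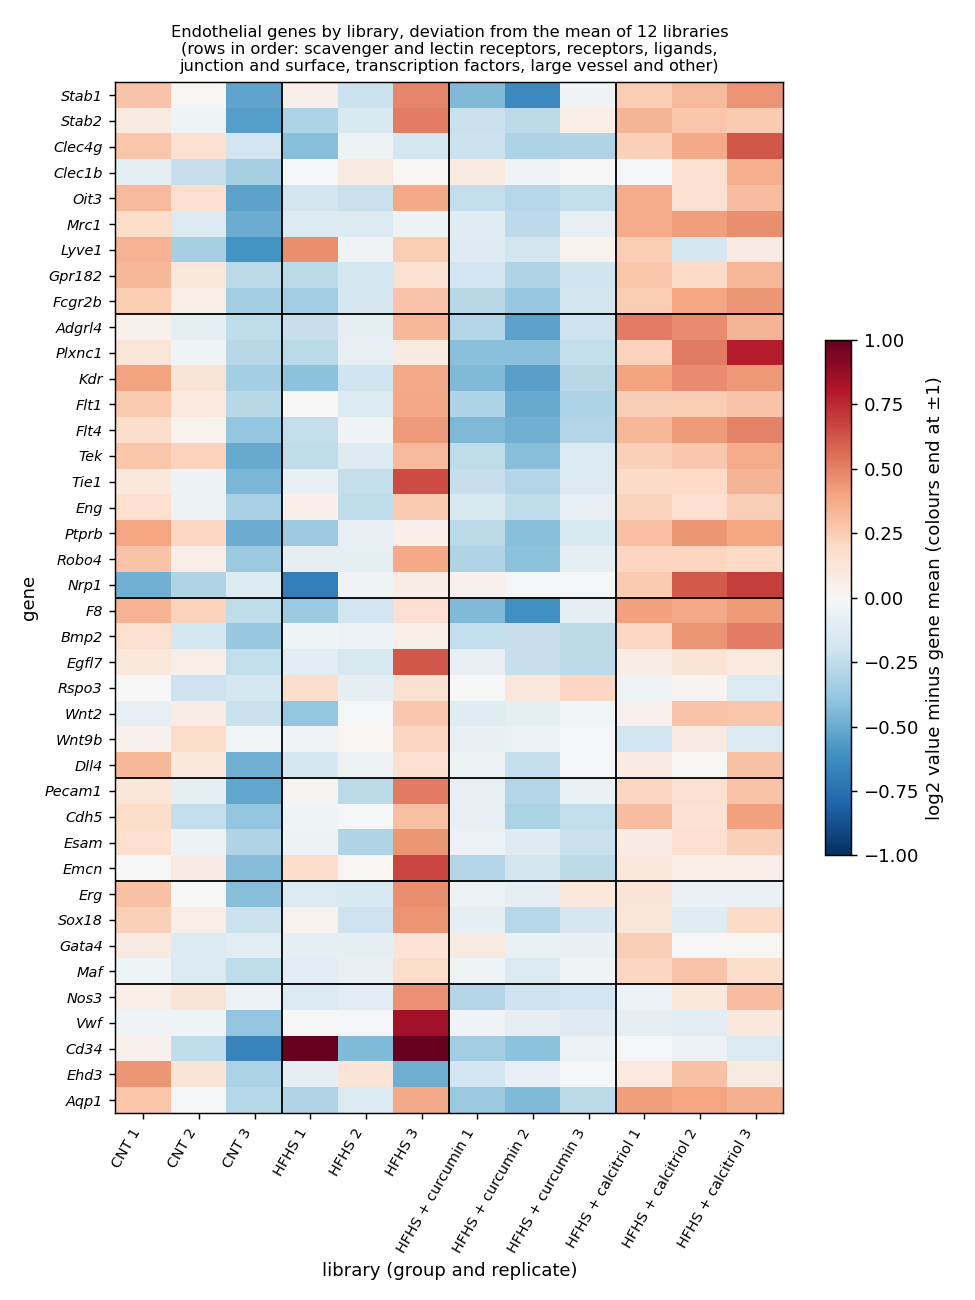
Each row is one of the 40 endothelial genes, each column one of the 12 libraries, and the colour is the log2 value minus the gene's mean over 12 libraries, with colours ending at ±1. The 3 calcitriol columns are mostly above the mean and the 3 curcumin columns mostly below it, while the CNT and HFHS columns vary from library to library, with CNT replicate 3 low and HFHS replicate 3 high.

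Endothelial genes were lower in the curcumin-treated than in the calcitriol-treated livers almost throughout the set, but no single gene passed the test when the spread of all 4 groups was used. Of the 40 genes, 38 were below 0 in the curcumin minus calcitriol difference, or 95%, against 49.1% of all 12637 genes tested. The median difference was -0.45 on the log2 scale, against 0.004 for all genes. In 31 of the 40, all 3 curcumin libraries were below all 3 calcitriol libraries, against 13.8% of all genes, and in 0 were they all above, against 14.9%. As whole liver was measured, fewer endothelial cells and less of these RNAs per cell cannot be told apart.

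The test was limma on the log2 values with 1 estimate of spread shared by the 4 groups, and p-values were adjusted by Benjamini-Hochberg across the whole table, at a threshold of 0.05. It called 0 of the 40 genes and 0% of all genes, and the lowest adjusted p was 0.142. At an unadjusted p under 0.05, limma gave 23 of the 40, all lower with curcumin, against 7.33% of all genes lower at the same p. The endothelial genes varied far more among untreated libraries than among injected ones: their median SD within a group was 0.284 in CNT and 0.312 in HFHS, against 0.0945 with curcumin and 0.0864 with calcitriol. For all genes tested the 4 medians were 0.114, 0.124, 0.0906 and 0.0827 in the same order.

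When only the curcumin and calcitriol libraries entered the fit, 23 of the 40 genes passed, all lower with curcumin, against 1.27% of all genes lower. The median standard error of the 40 differences was then 0.08 in place of 0.163. This count fell to 8 without curcumin replicate 2 and to 14 without calcitriol replicate 2, and lay between 16 and 25 without each of the other 4 libraries in turn. How many of all genes passed in these fits without 1 library was not counted, so the share to set beside 8 to 25 is unknown. With 1 estimated weight per library in the fit of 4 groups, 18 of the 40 passed, all lower, against 2.71% of all genes lower, and with HFHS replicates 1 and 3 both left out 3 passed, against 0.0791% of all genes in either direction.

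**Figure D2:**
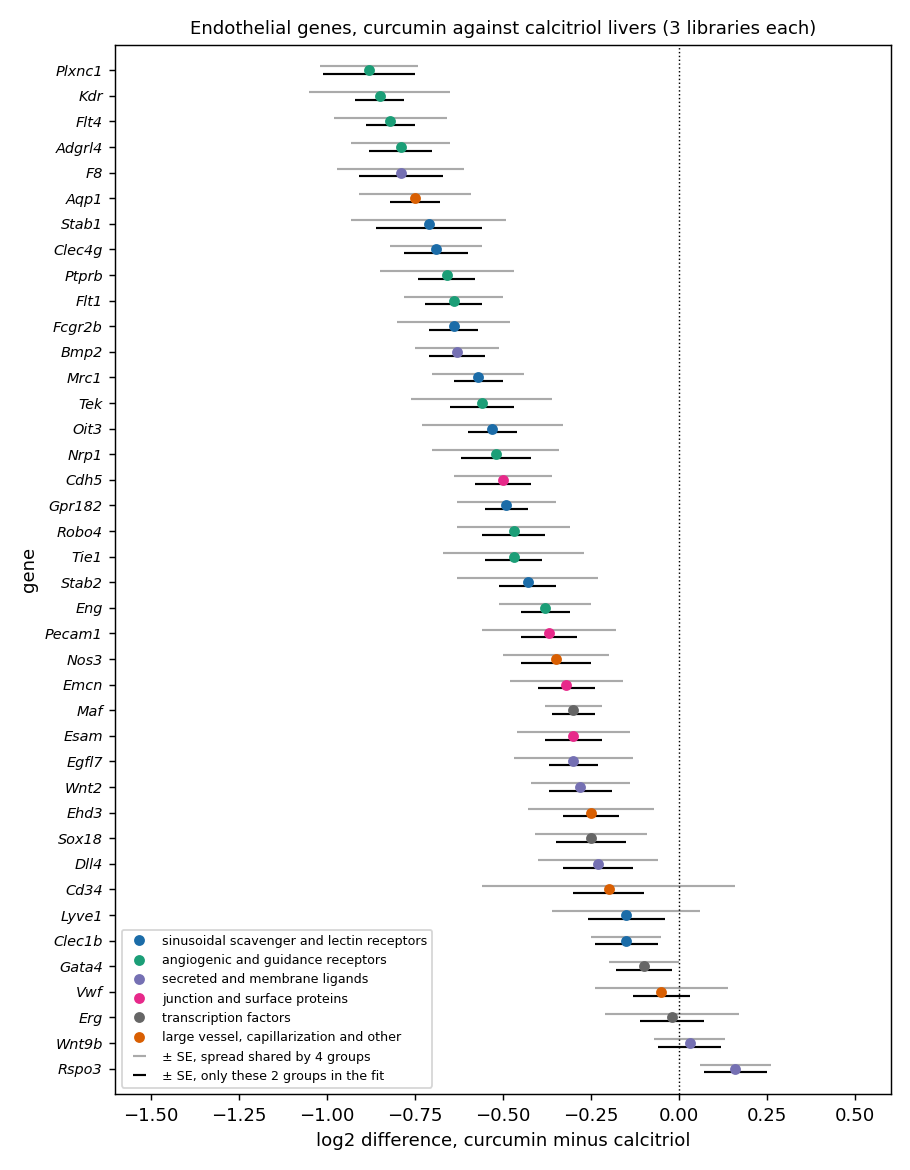
The log2 difference of curcumin minus calcitriol (3 libraries each) is shown for each of the 40 genes in order of size, coloured by role, with 1 standard error from the fit of 4 groups in grey and from the fit of only these 2 groups in black. The differences run from -0.88 for Plxnc1 to 0.16 for Rspo3, and 38 of 40 are below 0.

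The scavenger and lectin receptors, which give sinusoidal cells their clearing function, were below 0 in 9 of 9, with a median difference of -0.53 and 7 of 9 not overlapping. Stab2, the hyaluronan-clearing receptor stabilin-2 (ENSMUSG00000035459; GRCm38 chromosome 10, 86841198 to 87008025, minus strand), stood at 9.43, 9.39 and 9.72 with curcumin and at 9.99, 9.93 and 9.91 with calcitriol, in replicates 1 to 3. In HFHS it stood at 9.34, 9.5 and 10.16, and in CNT at 9.74, 9.61 and 9.1. The curcumin and calcitriol libraries did not overlap, but both untreated groups spanned a wider range than either. The difference was -0.43 ± 0.20 (SE, n = 3 per group; limma adjusted p = 0.356), and its adjusted p was 0.0351 with only the 2 groups in the fit.

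Clec4g, the sinusoidal C-type lectin LSECtin (ENSMUSG00000074491; chromosome 8, 3707064 to 3720651, minus strand), stood at 9.41, 9.31 and 9.32 with curcumin and at 9.86, 10 and 10.24 with calcitriol. In HFHS it stood at 9.2, 9.57 and 9.45, and in CNT at 9.9, 9.78 and 9.43. Every calcitriol library was above every curcumin and every HFHS library. The difference between curcumin and calcitriol was -0.69 ± 0.13 (limma adjusted p = 0.169, and 0.0063 with only the 2 groups in the fit), a level 0.622 times as high with curcumin.

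Oit3, a secreted protein made by sinusoidal cells (ENSMUSG00000009654; chromosome 10, 59422958 to 59441778, minus strand), stood at 8.49, 8.45 and 8.49 with curcumin and at 9.1, 8.89 and 9.04 with calcitriol. In HFHS it stood at 8.55, 8.51 and 9.11, and in CNT at 9.06, 8.9 and 8.2. HFHS replicates 1 and 2 were near the curcumin level and replicate 3 at the calcitriol level. The difference was -0.53 ± 0.20 (limma adjusted p = 0.286, and 0.00563 with only the 2 groups in the fit).

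Gpr182, an atypical chemokine receptor of sinusoidal cells (ENSMUSG00000058396; chromosome 10, 127747276 to 127751732, minus strand), stood at 8.62, 8.51 and 8.61 with curcumin and at 9.09, 9 and 9.14 with calcitriol. In HFHS it stood at 8.54, 8.63 and 8.96, and in CNT at 9.14, 8.92 and 8.55. Curcumin and calcitriol livers were separate here too, and the difference was -0.49 ± 0.14 (limma adjusted p = 0.21, and 0.0058 with only the 2 groups in the fit).

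Among the other scavenger and lectin genes, Stab1, the other stabilin, differed by -0.71 ± 0.22, and Fcgr2b, the inhibitory receptor that takes up IgG complexes, by -0.64 ± 0.16. Fcgr2b is close in sequence to other Fc receptor genes, and how reads shared between them were counted is not stated. Mrc1, the mannose receptor, differed by -0.57 ± 0.13. Lyve1, a hyaluronan receptor also known from lymphatic vessels, and Clec1b, a lectin receptor also found on platelets, overlapped between the groups, each with a difference of -0.15.

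The receptors for angiogenic and guidance signals were lower throughout: 11 of 11 were below 0, 11 of 11 did not overlap, and the median difference was -0.64. Plxnc1, a semaphorin receptor (ENSMUSG00000074785; chromosome 10, 94790866 to 94944835, minus strand), stood at 7.94, 7.94 and 8.11 with curcumin, 8.59, 8.88 and 9.14 with calcitriol, 8.09, 8.28 and 8.45 in HFHS and 8.48, 8.32 and 8.08 in CNT. Calcitriol was above every library of the other 3 groups. The difference of -0.88 ± 0.14 had a limma adjusted p of 0.142, and of 0.0236 with only the 2 groups in the fit.

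Adgrl4, an adhesion G protein-coupled receptor of endothelium (ENSMUSG00000039167; chromosome 3, 151437887 to 151545086, plus strand), stood at 7.33, 7.09 and 7.42 with curcumin, 8.14, 8.1 and 7.97 with calcitriol, 7.4, 7.54 and 7.96 in HFHS and 7.67, 7.53 and 7.37 in CNT. The calcitriol libraries were again above all 9 others, narrowly so over HFHS replicate 3. The difference of -0.79 ± 0.14 had a limma adjusted p of 0.142, and of 0.00395 with only the 2 groups in the fit.

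All 3 receptors for vascular endothelial growth factors were lower with curcumin: Kdr differed by -0.85 ± 0.20, Flt4 by -0.82 ± 0.16 and Flt1 by -0.64 ± 0.14. Kdr, the main signalling receptor, stood at 8.8, 8.7 and 8.96 with curcumin, 9.64, 9.71 and 9.67 with calcitriol, 8.83, 9.04 and 9.62 in HFHS and 9.64, 9.37 and 8.9 in CNT. Its calcitriol values lay close together, whereas the untreated groups reached from the curcumin level to the calcitriol level. Chosen after their values were seen, Kdr and Flt4 had the lowest adjusted p of the 40 with only the 2 groups in the fit, at 0.000784 each. The angiopoietin receptor Tek differed by -0.56 ± 0.20 and its partner Tie1 by -0.47 ± 0.20. Ptprb, a phosphatase that restrains Tek, differed by -0.66 ± 0.19. Nrp1, a co-receptor for semaphorins and VEGF, differed by -0.52 ± 0.18, Robo4 by -0.47 ± 0.16 and the BMP co-receptor Eng by -0.38 ± 0.13.

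The secreted and membrane ligands were split. F8, coagulation factor VIII, whose main source is endothelium, differed by -0.79 ± 0.18. Bmp2, one of the ligands through which sinusoidal cells drive hepcidin in hepatocytes (ENSMUSG00000027358; chromosome 2, 133552159 to 133562885, plus strand), stood at 7.77, 7.79 and 7.76 with curcumin, 8.23, 8.46 and 8.53 with calcitriol, 7.98, 7.96 and 8.08 in HFHS and 8.18, 7.85 and 7.64 in CNT. Its curcumin libraries lay below and its calcitriol libraries above every HFHS library. The difference of -0.63 ± 0.12 had a limma adjusted p of 0.164, and of 0.00567 with only the 2 groups in the fit.

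Of the 3 ligands of WNT signalling around the central vein, Wnt2 differed by -0.28 ± 0.14 with groups that did not overlap. Rspo3, an R-spondin that amplifies WNT signals, differed by 0.16 ± 0.10 (95% interval -0.06 to 0.37), and Wnt9b by 0.03 ± 0.10 (-0.18 to 0.24). They were the only 2 of the 40 above 0. The Notch ligand Dll4 differed by -0.23 ± 0.17 and the secreted endothelial factor Egfl7 by -0.30 ± 0.17, both without overlap.

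Proteins of the cell junctions and surface were lower in 4 of 4, with a median of -0.34 and no overlap. VE-cadherin (Cdh5) differed by -0.50 ± 0.14, Pecam1 by -0.37 ± 0.19, Emcn by -0.32 ± 0.16 and Esam by -0.30 ± 0.16. The transcription factors had the smallest median of the roles, at -0.17. Maf, a factor of sinusoidal identity, was lower without overlap (-0.30 ± 0.08), while the groups overlapped for Gata4 (-0.10 ± 0.10), which is needed for sinusoidal differentiation, for Sox18 (-0.25 ± 0.16) and for the ETS factor Erg (-0.02 ± 0.19, 95% interval -0.43 to 0.40).

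The remaining 5 genes, of larger vessels, of capillarization and of other endothelial functions, were all below 0, but the 2 markers of capillarization overlapped between the groups. Cd34, a sialomucin of continuous capillaries (ENSMUSG00000016494; chromosome 1, 194938819 to 194961279, plus strand), stood at 5.14, 5.08 and 5.43 with curcumin, 5.47, 5.43 and 5.35 with calcitriol, 6.57, 5.05 and 6.77 in HFHS and 5.53, 5.24 and 4.83 in CNT. Its HFHS replicates 1 and 3 were above all other libraries and its HFHS replicate 2 was below all but one. The difference between curcumin and calcitriol was -0.20 ± 0.36 (limma adjusted p = 0.825, 95% interval -0.99 to 0.59).

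Vwf, von Willebrand factor (ENSMUSG00000001930; chromosome 6, 125546774 to 125686679, plus strand), stood at 7.05, 7 and 6.96 with curcumin, 6.99, 6.98 and 7.19 with calcitriol, 7.09, 7.07 and 7.93 in HFHS and 7.05, 7.04 and 6.69 in CNT. HFHS replicate 3 was well above the other 11 libraries, which spanned 6.69 to 7.19. The difference between curcumin and calcitriol was -0.05 ± 0.19 (limma adjusted p = 0.924, 95% interval -0.47 to 0.37). Neither gene passed with only the 2 groups in the fit, at adjusted p values of 0.268 for Cd34 and 0.736 for Vwf. Of the other 3 genes in this group, the water channel gene Aqp1 differed by -0.75 ± 0.16, the endothelial nitric oxide synthase gene Nos3 by -0.35 ± 0.15 and the endocytic recycling gene Ehd3 by -0.25 ± 0.18, all without overlap.

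**Figure D3:**
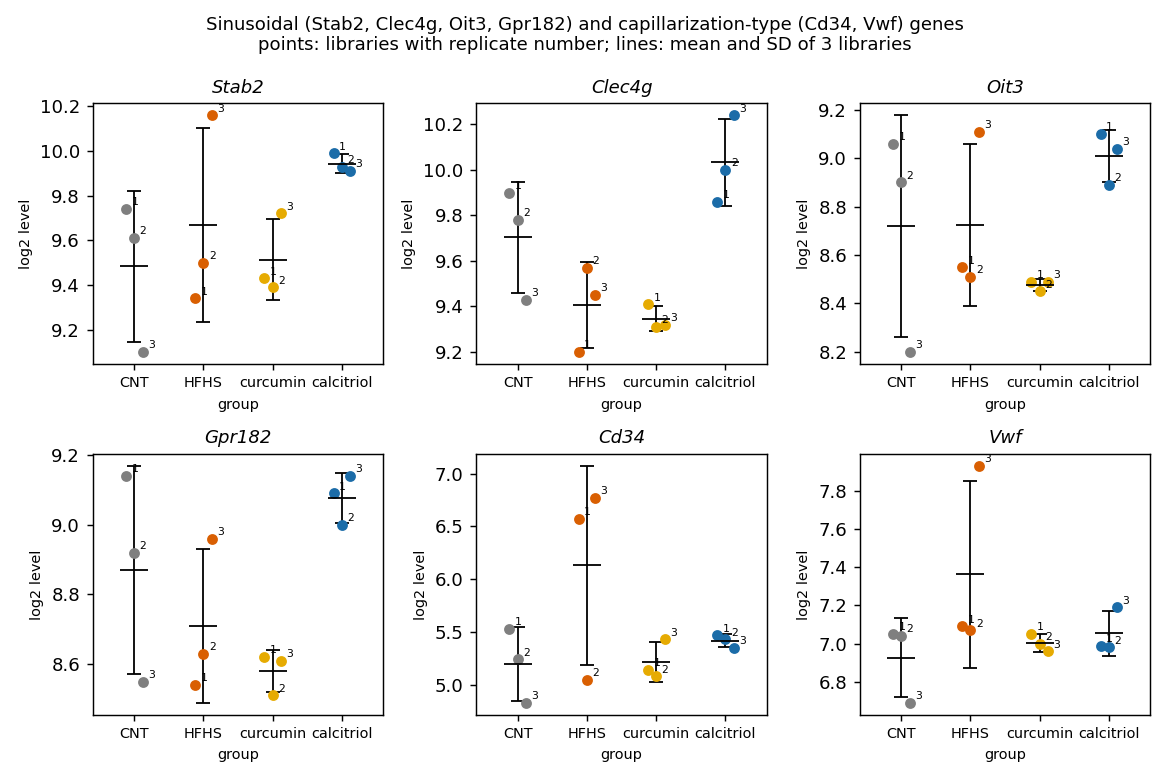
The log2 level of Stab2, Clec4g, Oit3, Gpr182, Cd34 and Vwf is shown for every library by group, with the replicate number beside each point and lines for the mean and SD of 3 libraries. Curcumin and calcitriol points are apart in the 4 sinusoidal genes and overlap in Cd34 and Vwf, whose highest points are HFHS libraries.

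To set sinusoidal against capillarization-type genes within each library, the mean deviation of Cd34 and Vwf from their means over 12 libraries was subtracted from that of Stab2, Clec4g, Oit3 and Gpr182. This level was -0.02, -0.04 and -0.08 with curcumin and 0.36, 0.33 and 0.40 with calcitriol. In CNT it was 0.26, 0.25 and 0.15, and in HFHS -0.84, 0.07 and -0.85. Each of the 3 groups other than HFHS was tight, and HFHS held 2 libraries far below all others and 1 between curcumin and CNT. The curcumin minus calcitriol difference was -0.41, made of -0.53 in the sinusoidal genes and -0.13 in the capillarization genes. With Cd34 alone as the capillarization gene it was -0.33, and with Vwf alone -0.48. The HFHS minus CNT difference was -0.75, made of -0.07 in the sinusoidal genes and 0.69 in the capillarization genes. The low HFHS values thus came mostly from high Cd34 in replicates 1 and 3 and high Vwf in replicate 3, and the low curcumin values from low sinusoidal genes. These differences describe genes chosen by name with earlier results of these data known, and no p is given for them.

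**Figure D4:**
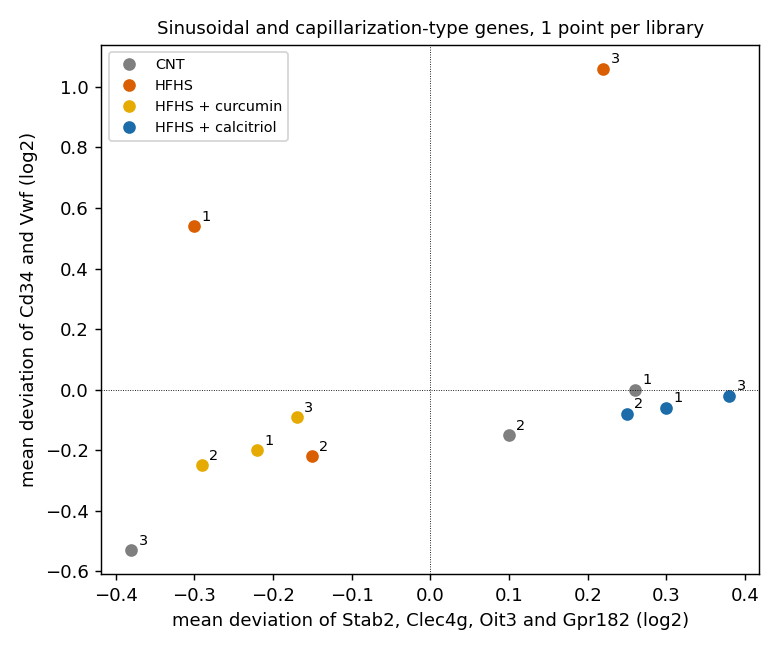
Each point is 1 library, with the mean log2 deviation of the 4 sinusoidal genes on the horizontal axis and that of Cd34 and Vwf on the vertical axis, coloured by group and numbered by replicate. Curcumin and calcitriol libraries differ along the horizontal axis (-0.29 to -0.17 against 0.25 to 0.38), and HFHS replicates 1 and 3 stand out on the vertical axis at 0.54 and 1.06.

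Promoter sequences are shown for 4 of these genes, as 3 that separated curcumin from calcitriol livers and 1 that did not. RefSeq windows on GRCm38.p6, from 250 bases before to 50 after the start of transcription, matched 26 of the 40 genes by symbol. In capitals are matches to AGGAAG on either strand (CTTCCT on the strand shown), a core letter string of ETS factor sites, ETS factors including the endothelial factor ERG. The windows are Stab2 at chr10:87007893-87008192, Clec4g at chr8:3720602-3720901 and Plxnc1 at chr10:94944796-94945095, all on the minus strand, and Cd34 at chr1:194938571-194938870 on the plus strand. Each runs 5′ to 3′ along its gene.
Stab2: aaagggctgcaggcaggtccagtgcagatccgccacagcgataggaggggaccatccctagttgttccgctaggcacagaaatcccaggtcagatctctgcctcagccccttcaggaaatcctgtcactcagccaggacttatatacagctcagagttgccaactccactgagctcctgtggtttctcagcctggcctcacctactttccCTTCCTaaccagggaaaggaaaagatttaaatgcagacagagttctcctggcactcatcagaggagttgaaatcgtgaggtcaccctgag
Clec4g: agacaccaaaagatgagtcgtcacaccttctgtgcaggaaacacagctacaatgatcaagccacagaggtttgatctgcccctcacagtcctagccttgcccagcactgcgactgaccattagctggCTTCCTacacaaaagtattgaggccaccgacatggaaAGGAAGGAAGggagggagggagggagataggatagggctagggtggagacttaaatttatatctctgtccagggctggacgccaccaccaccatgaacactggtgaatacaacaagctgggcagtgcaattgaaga
Plxnc1: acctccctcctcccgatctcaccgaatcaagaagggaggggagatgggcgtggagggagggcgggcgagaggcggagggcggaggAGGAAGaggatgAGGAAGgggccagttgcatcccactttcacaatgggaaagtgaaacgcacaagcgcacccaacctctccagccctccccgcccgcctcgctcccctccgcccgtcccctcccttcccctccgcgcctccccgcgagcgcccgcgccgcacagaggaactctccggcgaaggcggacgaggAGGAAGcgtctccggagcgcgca
Cd34: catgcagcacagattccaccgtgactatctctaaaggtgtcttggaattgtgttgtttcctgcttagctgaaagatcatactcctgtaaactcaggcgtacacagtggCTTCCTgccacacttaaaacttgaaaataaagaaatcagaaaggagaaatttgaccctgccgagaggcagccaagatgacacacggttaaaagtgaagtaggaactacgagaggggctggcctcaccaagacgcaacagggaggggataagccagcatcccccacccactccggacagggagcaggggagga
AGGAAG occurred once in the Stab2 and Cd34 windows and 3 times in those of Clec4g and Plxnc1, where 2 of the 3 Clec4g matches share letters. Over all members with a window it occurred in 17 of 26 genes, or in 60% of their 30 windows, against 35.4% of 32851 RefSeq windows of the same length. Strings for other endothelial factors were nearer to the background: AGATAA, known from sites of GATA factors, in 10% against 11.2%, and TGCTGA, known as a MAF half-site, in 20% against 19.5%, both searched on both strands. A match is a string of letters and not a measured site, and genes with the ETS string included both separated genes and Cd34.

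Against CNT, calcitriol-treated livers had higher levels of 7 of the 40 endothelial genes past the threshold, and of none lower, where limma called 4.04% of all genes in either direction and 1.77% higher. The differences were above 0 in 39 of 40, with a median of 0.29 against -0.004 for all genes, and 13 of 40 were higher without overlap, against 14.9% of all genes. Without CNT replicate 3, the low CNT library, the median was 0.11, and 35 of 40 were above 0. The 7 were Nrp1, Mrc1, Maf, Bmp2, Clec1b, Plxnc1 and Adgrl4, so they came from the receptors, lectins, ligands and transcription factors alike. The same CNT libraries enter the HFHS and curcumin comparisons with CNT, so these comparisons are not independent.

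Nrp1 had the largest rise (ENSMUSG00000025810; chromosome 8, 128358604 to 128503363, plus strand), from 10.51, 10.69 and 10.85 in CNT to 11.25, 11.6 and 11.68 with calcitriol, a difference of 0.83 ± 0.18 (limma adjusted p = 0.0307). It stood at 10.3, 10.95 and 11.06 in HFHS and at 11.03, 10.97 and 10.97 with curcumin, so the calcitriol libraries were above all 9 others. Mrc1 (ENSMUSG00000026712; chromosome 2, 14229392 to 14332057, plus strand) rose from 9.85, 9.52 and 9.17 to 10.04, 10.09 and 10.13, by 0.57 ± 0.13 (limma adjusted p = 0.0354). Its levels were 9.53, 9.52 and 9.62 in HFHS and 9.55, 9.41 and 9.59 with curcumin. Again every calcitriol library was above all others.

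Maf (ENSMUSG00000055435; chromosome 8, 115682942 to 115707794, minus strand) rose from 9.37, 9.27 and 9.16 in CNT to 9.63, 9.7 and 9.59 with calcitriol, by 0.37 ± 0.08 (limma adjusted p = 0.0354). It stood at 9.31, 9.34 and 9.6 in HFHS and at 9.37, 9.27 and 9.38 with curcumin. Only HFHS replicate 3 reached the calcitriol range. Clec1b (ENSMUSG00000030159; chromosome 6, 129397297 to 129409335, plus strand) rose from 7.4, 7.26 and 7.16 to 7.48, 7.65 and 7.86, by 0.39 ± 0.10 (limma adjusted p = 0.0443), and stood at 7.48, 7.58 and 7.51 in HFHS and 7.58, 7.46 and 7.5 with curcumin. For Clec1b, CNT was below all 9 other libraries, unlike for the other 6 genes. Bmp2 rose by 0.52 ± 0.12 (limma adjusted p = 0.036), Plxnc1 by 0.57 ± 0.14 (0.0445) and Adgrl4 by 0.55 ± 0.14 (0.0447), from the library values given above.

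Of the contrast genes, Stab2 differed between calcitriol and CNT by 0.46 ± 0.20 (limma adjusted p = 0.207), Clec4g by 0.33 ± 0.13 (0.165), Oit3 by 0.29 ± 0.20 (0.415) and Gpr182 by 0.20 ± 0.14 (0.395). Cd34 differed by 0.22 ± 0.36 (0.749) and Vwf by 0.13 ± 0.19 (0.731). The count of 7 fell to 0 without CNT replicate 2, calcitriol replicate 2 or calcitriol replicate 3, to 2 without CNT replicate 3, and to 4 without CNT replicate 1 or calcitriol replicate 1. In these fits without 1 library the share of all genes called ran from 0.578% to 4.82%. The count was 3 with only the 2 groups in the fit, where 4.34% of all genes were called. It was 5 with the replicate block (4.96%), which lost Clec1b (limma adjusted p = 0.0579) and Adgrl4 (0.0545).

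Markers of Kupffer cells, the resident macrophages of the sinusoids, were also higher in calcitriol against CNT. Of these, 12 of 12 were above 0, with 11 of 12 higher without overlap, against 14.9% of all genes. There 3 passed (Vsig4 by 0.62, Csf1r by 0.68 and Clec4f by 0.58), against 1.77% of all genes called higher, and none of the 12 was at 0. The Kupffer markers were above 0 in 12 of 12 also in HFHS against CNT (median 0.34) and in curcumin against CNT (median 0.31). In those 2 comparisons the medians of the 40 endothelial genes were 0.08 and -0.12. Among the 7 called genes, the same 2 differences were 0.25 and 0.24 for Clec1b, and 0.09 and 0.31 for Nrp1. They were 0.05 and 0 for Mrc1, and 0.15 and 0.07 for Maf. For Bmp2 they were 0.11 and -0.12, for Plxnc1 -0.02 and -0.3, and for Adgrl4 0.11 and -0.24. The summed level of the Kupffer markers was 13.45 to 13.81 in CNT, 13.72 to 14.18 in HFHS, 13.86 to 14.1 with curcumin and 14.06 to 14.35 with calcitriol on the log2 scale. Macrophages express some of the 7 called genes as well, Mrc1 and Maf among them. Platelet markers, which bear on Clec1b, stood higher as well: of 10 with values 4 were tested, all 4 were above 0 with a median of 0.26, 2 were higher without overlap and 0 passed. Their summed level was 7.33 to 7.53 in CNT, 7.17 to 7.46 in HFHS, 7.47 to 7.5 with curcumin and 7.53 to 7.84 with calcitriol. The part of Kupffer cells or platelets in these 7 calls was not tested.

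Against the untreated HFHS livers, calcitriol-treated livers had a higher level of 1 of the 40 genes past the threshold, where limma called 2.21% of all genes in either direction and 0.973% higher. This was Clec4g, by 0.63 ± 0.13 (limma adjusted p = 0.038), a level 1.54 times as high, from the library values given above. The differences were above 0 in 31 of 40 with a median of 0.21, and 10 of 40 were higher without overlap, against 12.6% of all genes. Those 10 included Mrc1, Gpr182, F8, Bmp2, Kdr and Nrp1. Kupffer cell markers stood higher beside them, above 0 in 9 of 12 with a median of 0.24, 4 without overlap and 0 passing, and their part was not tested. The Clec4g call was lost without HFHS replicate 1 (adjusted p = 0.13) or 3 (0.0831), without calcitriol replicate 2 (0.13) or 3 (0.154), with the replicate block (0.051) and with only the 2 groups in the fit (0.138). Nrp1 passed in its place with the block (0.0266). Without HFHS replicate 2 the count was 5, where 17.4% of all genes were called, and without calcitriol replicate 1 it was 2, where 0.934% were.

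Gpr182 differed between calcitriol and HFHS by 0.36 ± 0.14 (limma adjusted p = 0.155), Oit3 by 0.29 ± 0.20 (0.452) and Stab2 by 0.27 ± 0.20 (0.482). Cd34 differed by -0.71 ± 0.36 (0.277) and Vwf by -0.31 ± 0.19 (0.386). Both differences depended on single HFHS libraries: Cd34 was at -1.25 (0.000703) without HFHS replicate 2, at -0.39 (0.621) without replicate 3 and at 0.36 (0.562) with replicates 1 and 3 both left out, and Vwf was at -0.03 (0.933) without replicate 3. With HFHS replicates 1 and 3 both left out, the median over the 40 genes was 0.43 in place of 0.21, and 2 of them in place of 9 were below 0. The median was 0.34 without HFHS replicate 3 alone and 0.14 without HFHS replicate 1 alone.

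Curcumin-treated livers differed from untreated HFHS livers in 0 of the 40 endothelial genes past the threshold, where limma called 0.301% of all genes. At an unadjusted p under 0.05 it gave 5 of the 40, all lower, against 24.7% of all genes in either direction. The differences were below 0 in 36 of 40 with a median of -0.24, and 8 of 40 were lower without overlap, against 11.6% of all genes: Oit3, Bmp2, Flt1, Flt4, Cdh5, Emcn, Nos3 and Vwf. The median rested on HFHS replicate 3: without it the median was -0.06 and 31 of 40 were below 0, and with HFHS replicates 1 and 3 both left out these were -0.07 and 29. The count past the threshold was 3 without HFHS replicate 2, a smaller share than the 25.4% of all genes called in that fit. With the replicate block it stayed 0, while the count over all genes was 242 in place of 38.

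The contrast genes were not separated as in the comparison with calcitriol. Clec4g differed between curcumin and HFHS by -0.06 ± 0.13 (limma adjusted p = 0.81), Gpr182 by -0.13 ± 0.14 (0.575), Stab2 by -0.15 ± 0.20 (0.67) and Oit3 by -0.25 ± 0.20 (0.462). Cd34 differed by -0.91 ± 0.36 (0.154), with curcumin livers near HFHS replicate 2 and below replicates 1 and 3, and Vwf by -0.36 ± 0.19 (0.26). Cd34 was at -1.45 (0.000275) without HFHS replicate 2, at -0.59 (0.442) without replicate 3 and at 0.16 (0.999) with replicates 1 and 3 both left out, and Vwf was at -0.08 (0.768) without replicate 3.

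The untreated HFHS livers differed from CNT in 0 of the 40 endothelial genes past the threshold, although limma called 11.9% of all genes in this comparison. At an unadjusted p under 0.05 it gave 5 of the 40, 4 higher and 1 lower, against 31.9% of all genes. The median difference was 0.08, and 2 of 40 were higher without overlap, Clec1b and Vwf, against 12.7% of all genes. Cd34 had the widest difference at 0.93 ± 0.36 (limma adjusted p = 0.104), followed by Vwf at 0.44 ± 0.19 (0.145), Lyve1 at 0.42 ± 0.21 (0.186) and Emcn, a sialomucin of venous and capillary endothelium, at 0.41 ± 0.16 (0.107). Of the sinusoidal contrast genes, Clec4g was at -0.30 ± 0.13 (0.143), Gpr182 at -0.16 ± 0.14 (0.436), Stab2 at 0.18 ± 0.20 (0.562) and Oit3 at 0 ± 0.20 (0.993).

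The direction of these HFHS differences turned with single libraries. Of the 40 genes, 10 were below 0 with all libraries, 29 without HFHS replicate 3, 26 without CNT replicate 3, 5 without HFHS replicate 1, 6 without CNT replicate 1, and 25 with HFHS replicates 1 and 3 both left out. The median of 0.08 was -0.07 without HFHS replicate 3, -0.04 without CNT replicate 3 and -0.10 with HFHS replicates 1 and 3 both left out. The count past the threshold was 4 without HFHS replicate 2, 2 without CNT replicate 3 and 1 without CNT replicate 1, where 29.4%, 10.8% and 4.26% of all genes were called. Cd34 was at 1.47 (limma adjusted p = 0.00015) and Vwf at 0.58 (0.0492) without HFHS replicate 2. Cd34 was at 0.61 (0.328) and Vwf at 0.15 (0.451) without HFHS replicate 3, and Cd34 was at -0.14 (0.872) with replicates 1 and 3 both left out. The 2 libraries with high Cd34 were also those with high collagen: Col1a1, a fibre collagen of stellate cells and fibroblasts, stood at 10.13, 7.33 and 9.78 in HFHS and at 6.68 to 7.87 in the other 9 libraries. All 15 stellate cell and fibroblast markers had values, and their summed level was 13.59 to 14.09 in HFHS and 13.33 to 13.61 in CNT. Adipocyte markers had values for 6 of 6, of which only Cfd passed the filter on low values, and their summed level was 4.6 to 9.27 in HFHS, with the high value in replicate 3, and 4.65 to 4.66 in CNT. The part of these cells in the Cd34 and Vwf values was not tested.

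Curcumin-treated livers differed from CNT in 0 of the 40 genes past the threshold, where limma called 3.51% of all genes, and in 7 at an unadjusted p under 0.05, 2 higher and 5 lower, against 18.6% of all genes. The median difference was -0.12 and 27 of 40 were below 0. Clec4g differed by -0.36 ± 0.13 (limma adjusted p = 0.17), Gpr182 by -0.29 ± 0.14 (0.28), Oit3 by -0.24 ± 0.20 (0.571) and Stab2 by 0.03 ± 0.20 (0.962). Cd34 differed by 0.02 ± 0.36 (0.985) and Vwf by 0.07 ± 0.19 (0.882). Without CNT replicate 3 the median was -0.28 and 5 genes passed, where 7.51% of all genes were called, and without CNT replicate 1 the median was -0.04.

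Across the 4 groups, the mean level of the 4 sinusoidal genes was thus lowest with curcumin and highest with calcitriol, at -0.22 ± 0.06 and 0.31 ± 0.06 (SD, n = 3), with HFHS at -0.08 ± 0.27 and CNT at -0.01 ± 0.33 between them. Neighbours in this order overlapped: curcumin with HFHS, HFHS with CNT, and CNT with calcitriol through CNT replicate 1. The curcumin and calcitriol libraries, at its ends, did not.

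Endothelial genes outside the 40 were examined in the same way. A list of 30 general endothelial genes, of which 28 were tested, was below 0 with curcumin against calcitriol in 26, with a median of -0.35. Of the 28, 19 were lower without overlap, against 13.8% of all genes, and 0 passed. In HFHS against CNT, 2 of the 28 rose, Cd93 by 0.88 ± 0.24 (limma adjusted p = 0.0387) and the thrombin receptor thrombomodulin, Thbd, by 0.58 ± 0.15 (0.0314), a share of the list near the 6.55% of all genes called higher. Another gene fell, where 677 of 12637 genes were called lower. It was the cytokine receptor gene Lifr, by 1.06 on the log2 scale (limma adjusted p = 0.00273), a gene that hepatocytes express as well.

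A list of 28 capillary and large vessel genes, 26 of them tested, was described likewise. With curcumin against calcitriol, 15 of 26 were below 0, the median was -0.05 and 0 passed. Against HFHS, 24 of 26 were below 0 with curcumin (median -0.4, 0 passed) and 21 of 26 with calcitriol (median -0.26). With calcitriol 1 was called lower, where 156 of 12637 genes were. HFHS replicates 1 and 3 were high for this list, at median deviations of 0.42 and 0.29, and replicate 2 was at -0.01. In HFHS against CNT, 22 of 26 were above 0, the median was 0.36 and 5 rose, against 6.55% of all genes called higher. These were the basement membrane genes Col4a1 (1.15 ± 0.22, limma adjusted p = 0.0161), Col4a2 (1.02 ± 0.21, 0.0177), Lamb1 (0.62 ± 0.14, 0.0234) and Nid1 (1.14 ± 0.28, 0.0308), and the leukocyte adhesion molecule gene Vcam1 (0.84 ± 0.17, 0.0161). Stellate cell and fibroblast markers were higher in the same comparison, above 0 in 12 of 15 with a median of 0.36 and 4 called. So were recruited macrophage markers, in 8 of 8 with a median of 0.92 and 3 called. The summed level of the macrophage markers was 11.28 to 11.68 in CNT and 11.56 to 13.01 in HFHS. Hepatocyte markers went the other way, below 0 in 11 of 11 with a median of -0.49. Of these 4 were called lower, against 677 of 12637 genes. Stellate cells and fibroblasts also make basement membrane proteins, and the part of these cells in the 5 calls was not tested. For Nid1 the HFHS values were 10.35, 8.91 and 9.99, against 8.83, 8.55 and 8.46 in CNT, so replicates 1 and 3 stood apart there as well.

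In the lists of signalling genes that act on or through endothelium, no gene passed between the 2 treatments. Of 9 VEGF, angiopoietin and semaphorin ligands tested, 0 passed with curcumin against calcitriol (median 0). In HFHS against CNT 1 of the 9 rose, the angiopoietin gene Angpt1, by 0.48 ± 0.13 (limma adjusted p = 0.033), where 6.55% of all genes were called higher. Of 11 Notch pathway genes, 0 passed with curcumin against calcitriol (median 0.01). In HFHS against CNT 1 of them rose and 1 fell, where 11.9% of all genes were called in either direction. Of 15 genes of BMP and TGF-beta signalling in endothelium, 0 passed in either comparison, with medians of -0.13 and -0.13. Of 14 genes that respond to WNT signals around the central vein, 11 were above 0 with curcumin against calcitriol (median 0.20) and 0 passed. In HFHS against CNT 2 of the 14 fell, where 677 of 12637 genes were called lower. These were Tbx3 by 0.52 (limma adjusted p = 0.022) and Lgr4 by 0.45 (0.0267) on the log2 scale. Of 13 endothelial transcription factors and flow-responsive genes, 11 were below 0 with curcumin against calcitriol (median -0.10) and 0 passed. Of 6 lymphatic genes 3 were tested, and 0 passed with curcumin against calcitriol.

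Markers of the other liver cell types give the background to the curcumin and calcitriol difference. Kupffer cell markers were below 0 with curcumin in 11 of 12, with a median of -0.27 and 0 passing. Of the 12, 3 were lower without overlap, against 13.8% of all genes. Hepatocyte markers (11 tested) had a median of 0, stellate cell and fibroblast markers (15 tested) of 0.02, recruited macrophage markers (8 tested) of -0.01 and B, T and NK cell markers (9 tested) of -0.02. Platelet markers (4 of 10 tested), which bear on Clec1b and Vwf, had a median of -0.18 without any separation of the groups. Cholangiocyte markers (5 tested) had a median of 0.19 and mesothelial markers (4 tested) of 0.26. The 1 adipocyte marker tested differed by 0.1. The medians for the 40 endothelial genes (-0.45) and the 28 others (-0.35) were thus further from 0 than those of these lists. This describes lists chosen by name with earlier results of these data known. The part of Kupffer cells in the difference was not tested.

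**Figure D5:**
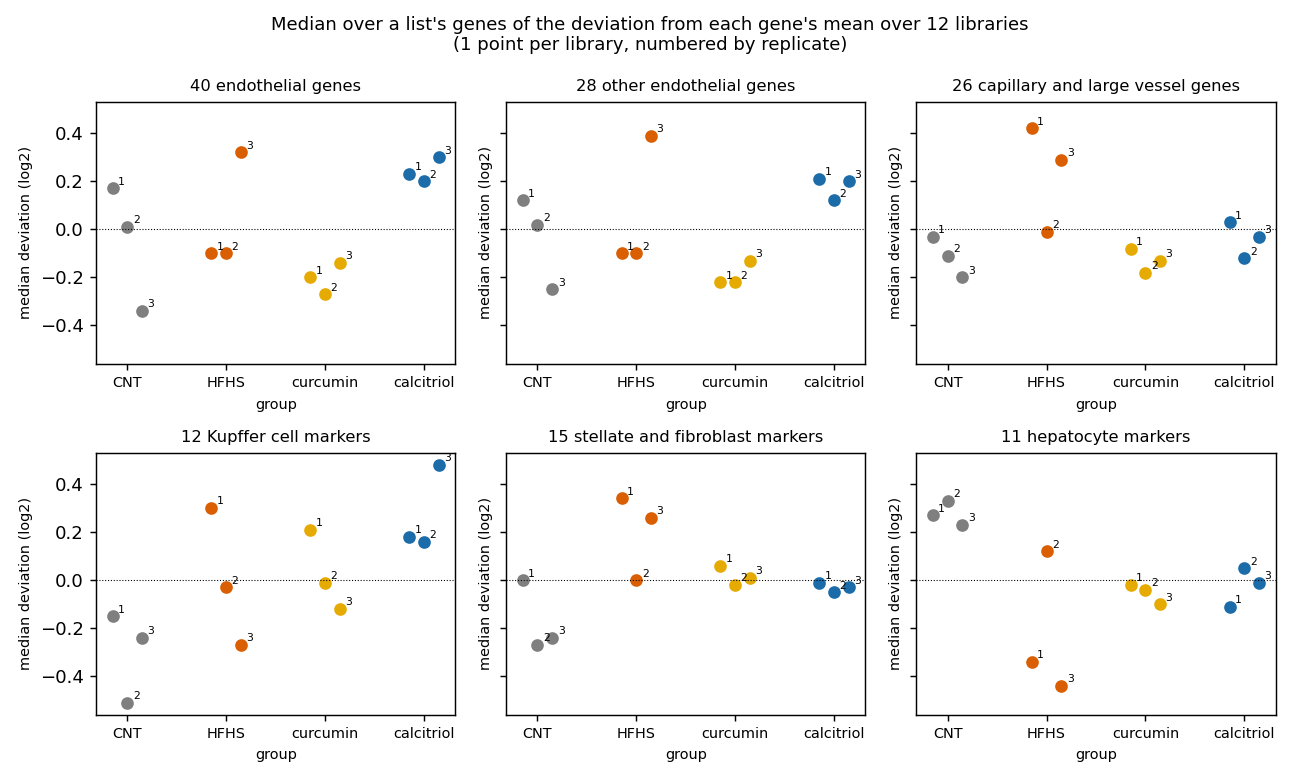
Each panel shows, for 1 list of genes, the median over its genes of the log2 deviation from each gene's mean over 12 libraries, with 1 point per library numbered by replicate. For the 40 endothelial genes the curcumin libraries lie at -0.27 to -0.14 and the calcitriol libraries at 0.20 to 0.30, while for stellate and hepatocyte markers the 2 treatments lie close together.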

How the data were processed

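The deposited files give 1 log2 expression value per Ensembl gene and library, made by the authors. The transformation is not named; low genes are drawn to floors of their own, the pattern of a regularized log2, so fold changes of low genes are probably understated. STAR 2.4.0d, DESeq2 1.8.1 and GRCm38 are named without roles, per the submitters' processing notes. Counting, strand and annotation are not given in the sources used here, so reads of overlapping or antisense genes may be mixed. Of 45792 gene IDs, 23411 were at exactly 0 in all 12 libraries and were dropped.

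Symbols came from GENCODE M21. Groups were compared with limma 3.58.1 (R 4.3.3) on the deposited values: 4 group means, variance trend and robust estimation, two-sided, Benjamini-Hochberg over 12637 genes. SE is limma's and intervals are 95%. Groups of 3 against 3 reach no exact permutation p below 0.1, so none is given. The procedure was tested on simulated data. The simulation gave each gene the same SD in every group, so it did not check the unequal spread between groups described above.

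The members and gene lists were chosen with earlier results of these data known. Named in full were the 6 contrast genes, members past the threshold and the 3 with the smallest p for curcumin against calcitriol; from other lists, up to 4 genes with the smallest p among those called. Same-numbered libraries deviated together, with every correlation over 0.1, in curcumin and HFHS (0.16, 0.32 and 0.16) and in calcitriol and CNT (0.21, 0.25 and 0.37), a pairing read from the data alone. Other filters, scalings, library weights, fits of 2 groups, replicate blocks and left-out libraries were tried, and leaving out HFHS replicates 1 and 3 together and single libraries from the fit of 2 groups was chosen after seeing the data.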

Additional observations from a re-analysis of the deposited data

How the results depend on the processing

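With a replicate block the count of endothelial genes past the threshold was 5 in place of 7 for calcitriol against CNT (4.96% of all genes called). It kept its value in the other 5 comparisons. It was 0 for curcumin against calcitriol (0%), HFHS against CNT (14.7%), curcumin against HFHS (1.92%) and curcumin against CNT (3.29%). It was 1 for calcitriol against HFHS (2.22%), although there Nrp1 passed and Clec4g did not. With library weights, which were lowest for HFHS replicate 2 (0.24) and CNT replicate 3 (0.306), the counts were 18 for curcumin against calcitriol (4.57% of all genes called), 7 for HFHS against CNT (37.9%), 14 for curcumin against HFHS (27.1%), 10 for calcitriol against HFHS (21.6%), 12 for curcumin against CNT (21%) and 10 for calcitriol against CNT (24.7%). With only the 2 groups compared in the fit, the count was 23 for curcumin against calcitriol (1.69% of all genes called). It was 0 for calcitriol against HFHS (0%) and 3 for calcitriol against CNT (4.34%). Median centring gave 3 and quantile normalization 2 for calcitriol against HFHS, counts whose shares of all genes are not given here. With HFHS replicates 1 and 3 both left out, so that the lone HFHS library was assumed to vary like the other groups, the count was 3 for curcumin against calcitriol and 0 for calcitriol against HFHS. Leaving out 1 library at a time gave 0 to 4 for HFHS against CNT, where 1.07% to 29.4% of all genes were called. For curcumin against HFHS it gave 0 to 3 (0% to 25.4%), and for calcitriol against HFHS 0 to 5 (0.0317% to 17.4%). For curcumin against CNT it gave 0 to 5 (0.744% to 7.51%), and for calcitriol against CNT 0 to 4 (0.578% to 4.82%). For curcumin against calcitriol it gave 0 throughout, with 0% of all genes. The sinusoidal minus capillarization difference of curcumin and calcitriol was -0.33 with Cd34 alone and -0.48 with Vwf alone. The cause of these shifts was not tested. Depth could not be read from log2 values.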
